A study of Homo sapiens with 6 samples.

Results

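Chromatin accessibility was examined at 10 genes of the EGF receptor system in MCF10A cells, a non-tumorigenic human mammary epithelial line that is grown with 20 ng/mL EGF and depends on it. The genes are the receptors EGFR, ERBB2 and ERBB3 and the ligands AREG, EREG, TGFA, HBEGF, BTC, EPGN and EGF, and they were chosen by name. For each gene, the open regions within the GENCODE release 44 gene body and 10 kb on either side were taken. These windows held 34 of the 49527 regions obtained by merging the lists of all libraries. ATAC-seq, which marks open chromatin by transposase insertion, was performed on 6 libraries of about 50000 cells. All cells were first held for 30 min in a phosphate-free buffer, and then for 30 min with no addition (control, 2 libraries), with 50 μM of the Zn2+ chelator TPA (2 libraries) or with 30 μM ZnCl2 (2 libraries). The buffer was a HEPES-buffered salt solution with glucose, and its listed components include no EGF, serum or insulin. The comparison asks whether lowering or raising the labile Zn2+ pool changes accessibility. The study's methods call the replicates biological and its results call them technical, so p-values measure only the spread between these libraries, which may be technical.

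The EGF receptors are tyrosine kinases of the cell surface that pair when a ligand binds and signal to the RAS and MAPK cascade and to PI3 kinase. ERBB2 binds no known ligand and ERBB3 has little kinase activity, and both act as partners within receptor pairs. The ligands are made as membrane-bound precursors and are released by proteases such as ADAM17. TGFA, AREG, HBEGF and EREG are known as autocrine growth factors of mammary epithelial cells, whereas culture media supply EGF itself.

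The lists held 25031 and 44641 regions in the control libraries, 35902 and 41376 in the TPA libraries and 38069 and 18887 in the ZnCl2 libraries, in order of replicate number. Read depth is unknown. Each region carries a whole-number score of at least 30 from the authors' region caller, and the percentile of a score is the percentage of regions in the same library that score lower. Start sites of KRT18 and ITGB4, epithelial and basal markers, were open in all 6 libraries, those of CLDN4 and TP63 in 0, and those of the other 6 epithelial markers in 3 to 5. Start sites of 7 of 7 markers of other cell types were open in 0 libraries.

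The 250 bases before the start site are shown for 6 of the genes, so that the promoters of open and unopened genes can be set side by side. They come from RefSeq on GRCh38.p14, on the strand of the gene and 5′ to 3′. Capitals mark matches on either strand to the GC box GGGCGG, the AP-1 site TGANTCA, the cAMP response element TGACGTCA, the TATA box TATAAA and the metal response element core TGCACNC or TGCGCNC, and matches that overlap run together.
EGFR, chr7:55018767-55019016, plus strand: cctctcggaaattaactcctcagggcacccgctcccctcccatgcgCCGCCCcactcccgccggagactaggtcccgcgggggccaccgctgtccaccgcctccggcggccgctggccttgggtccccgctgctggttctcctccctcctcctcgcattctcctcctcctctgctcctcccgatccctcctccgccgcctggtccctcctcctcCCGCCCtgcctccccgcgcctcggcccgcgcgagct
HBEGF, chr5:140346604-140346853, minus strand: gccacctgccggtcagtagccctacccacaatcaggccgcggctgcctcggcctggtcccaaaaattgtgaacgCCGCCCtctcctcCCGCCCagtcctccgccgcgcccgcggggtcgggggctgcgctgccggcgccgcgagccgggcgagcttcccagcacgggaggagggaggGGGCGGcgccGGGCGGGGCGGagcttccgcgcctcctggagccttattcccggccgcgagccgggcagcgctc
AREG, chr4:74444886-74445135, plus strand: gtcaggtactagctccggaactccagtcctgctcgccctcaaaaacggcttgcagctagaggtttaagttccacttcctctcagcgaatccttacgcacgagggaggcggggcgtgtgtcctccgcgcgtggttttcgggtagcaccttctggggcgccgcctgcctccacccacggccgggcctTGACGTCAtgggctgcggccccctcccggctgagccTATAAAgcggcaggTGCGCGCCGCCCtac
BTC, chr4:74794524-74794773, minus strand: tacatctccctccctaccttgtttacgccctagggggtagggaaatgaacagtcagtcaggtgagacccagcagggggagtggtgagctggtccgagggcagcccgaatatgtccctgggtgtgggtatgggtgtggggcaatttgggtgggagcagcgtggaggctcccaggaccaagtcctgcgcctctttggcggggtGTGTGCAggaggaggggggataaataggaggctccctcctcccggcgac
EREG, chr4:74364895-74365144, plus strand: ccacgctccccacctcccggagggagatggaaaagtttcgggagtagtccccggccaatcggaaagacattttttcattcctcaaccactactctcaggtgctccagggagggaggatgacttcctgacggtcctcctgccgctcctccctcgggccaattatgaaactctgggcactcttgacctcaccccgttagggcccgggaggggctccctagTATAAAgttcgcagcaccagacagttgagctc
EGF, chr4:109912633-109912882, plus strand: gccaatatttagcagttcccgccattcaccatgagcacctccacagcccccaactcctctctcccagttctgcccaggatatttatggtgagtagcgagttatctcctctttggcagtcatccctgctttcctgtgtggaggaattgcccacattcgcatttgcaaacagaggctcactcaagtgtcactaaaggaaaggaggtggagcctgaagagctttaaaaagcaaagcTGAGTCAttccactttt

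Extended to 50 bases past the start, the windows of 300 bases had a GC content of 75.3% in EGFR, 75.3% in TGFA, 75.0% in HBEGF, 66.3% in AREG, 63.0% in BTC, 57.7% in EREG, 46.7% in EGF and 37.7% in EPGN. Over 14642 promoters the median GC content was 55.7% where the start site was open in 0 libraries and 67.0% where it was open in 6. EREG and EGF, with no call over their start in any library, lay near the first of these medians or below it, and EPGN, open in 3 libraries, had the lowest GC content of the 8 genes measured. Of all promoters, 62.6% held a GC box, 36.4% a metal response element core, 9.45% the TATA box, 5.37% the AP-1 site and 2.85% the cAMP response element. The GC box occurred 5 times in HBEGF, 4 times in TGFA, 3 times in EGFR, 1 time each in AREG and BTC, and 0 times in EREG, EPGN and EGF. AREG also held the cAMP response element, EGF the AP-1 site, and AREG, EREG and EPGN the TATA box. The metal response element core occurred 1 time each in AREG and BTC and 0 times in the other 6 genes. ERBB2 and ERBB3 were not measured here.

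**Figure D1:**
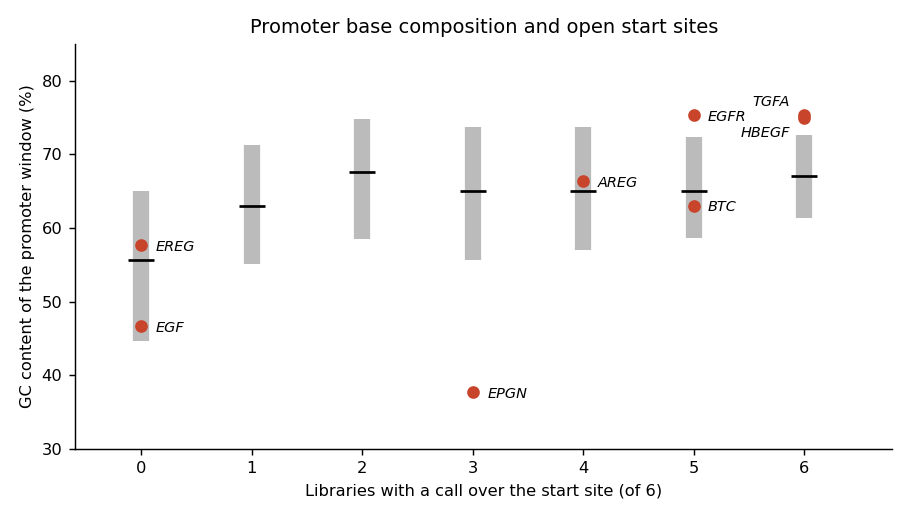
GC content (%) of the 300-base promoter window against the number of libraries with a call over the start site. Red points are the 8 genes measured; black dashes and gray bars are the median and the middle 50% of all promoters with that number of libraries. EGFR, TGFA and HBEGF lie above the gray bars, and EPGN lies below its bar.

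A call covered the start site of 5 and 8 of the 10 genes in the control libraries, 8 and 8 in the TPA libraries, and 7 and 4 in the ZnCl2 libraries. The background over 20033 protein-coding start sites was 50.5% and 60.8% in control, 54.5% and 56.5% in TPA, and 59.6% and 46.3% in ZnCl2. The 2 libraries with the fewest of the genes open, control replicate 1 and ZnCl2 replicate 2, were also those with the shortest lists. When each list was limited to its 18887 highest-scoring regions, the counts became 5 and 5 in control, 3 and 2 in TPA, and 6 and 4 in ZnCl2. The share of all protein-coding start sites open under this limit was not computed, so these counts have no background. ERBB2, TGFA and HBEGF were open at the start in all 6 libraries, EGFR, ERBB3 and BTC in 5, AREG in 4, EPGN in 3, and EREG and EGF in 0. Among protein-coding start sites 43.0% were open in 6 libraries and 36.9% in 0.

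**Figure D2:**
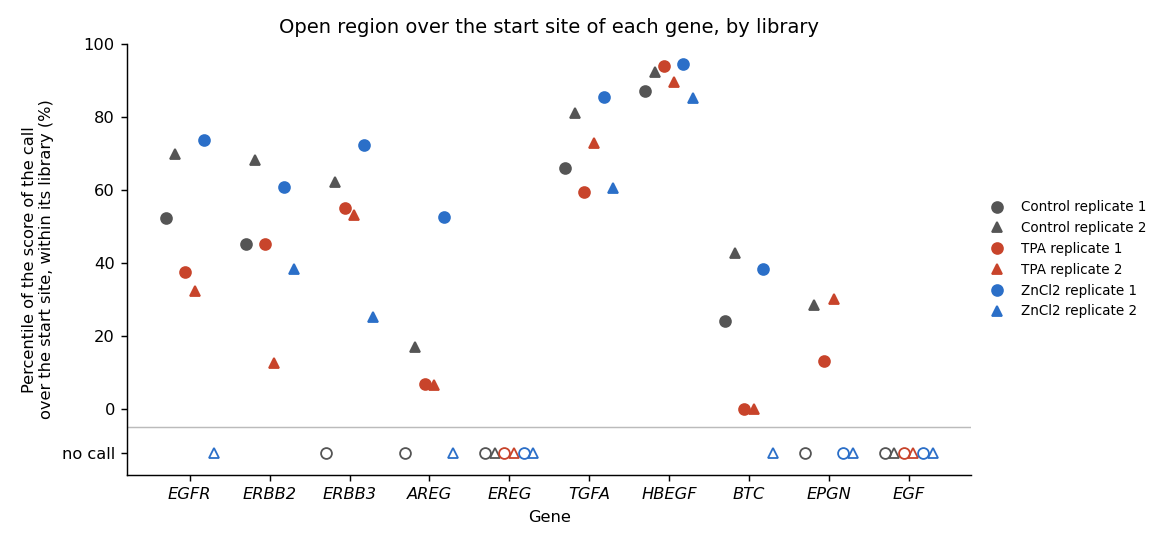
Percentile (%) of the score of the call over each start site within its own library; gray, red and blue are control, TPA and ZnCl2, circles and triangles are replicates 1 and 2, and open symbols mark libraries with no call. HBEGF sits between 85.1 and 94.4 in all 6 libraries, both TPA points of EGFR and BTC sit below both control points, and those of ERBB2 sit level with or below the lower control point.

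EGFR, the receptor for EGF itself, lies at chr7:55019017-55211628 on the plus strand (hg38). The call over its start site, in exon 1, had a score percentile of 52.4 and 69.8 in control, 37.4 and 32.2 in TPA, and 73.7 in ZnCl2 replicate 1, with no call in ZnCl2 replicate 2. Both TPA values lay below both control values, with means of 34.8 ± 3.68 and 61.1 ± 12.3 (SD, n = 2 each), and the exact two-sided permutation test gave p = 0.333, the smallest that 2 against 2 libraries allow. Of 8671 regions over protein-coding start sites, 22.6% were lower in this way with TPA. Since ZnCl2 replicate 2 lacked the call, the region was tested in the control and TPA libraries alone, where the quantile-normalised log2 scores were 5.98 and 5.89 in control and 5.49 and 5.29 in TPA. The log2 difference was -0.54 ± 0.16 (SE) with an adjusted p of 0.0629 by limma, short of the threshold of 0.05. In that fit 4.64% of 22309 regions were called.

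The remaining open regions of EGFR lay inside its introns, and those named here were chosen after their values were seen. In intron 1, at 53.9, 90.6 and 112 kb from the start, and in intron 20, at 168 kb, a region was open in all 6 libraries. The one at 112 kb (chr7:55127101-55135480) had the highest score of the locus in each library, 85 and 147 in control, 126 and 142 in TPA, and 131 and 85 in ZnCl2, at percentiles of at least 90.2. In ZnCl2 replicate 1 the region in intron 20 had the same score of 131. The log2 difference of the region at 112 kb was 0.23 ± 0.15 with TPA (limma, adjusted p = 0.385) and -0.04 ± 0.15 with ZnCl2 (adjusted p = 0.928). The region in intron 20 differed by 0.05 ± 0.15 with TPA (adjusted p = 0.886) and by 0.35 ± 0.15 with ZnCl2 (adjusted p = 0.276).

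A region of intron 1 at 47.0 kb (chr7:55064661-55067460) stood higher in both TPA libraries than in both control libraries. So did 25.0% of all regions open in these 4 and 11.9% of those over a protein-coding start. The share among regions away from starts, such as this one, was thus above 25.0%. Its scores were 32 and 44 in control, 55 and 60 in TPA and 36 in ZnCl2 replicate 1, with no call in ZnCl2 replicate 2. The 4-library fit gave a log2 difference of 0.49 ± 0.15 between TPA and control, with an adjusted p of 0.0810 by limma. The start site and this intronic region of 1 gene thus had differences of opposite sign, neither of which passed the test. Over all regions of that fit, 33.3% of those over a protein-coding start and 65.8% of the others were above 0. EGFR had 6 and 11 open regions in control, 11 and 10 in TPA, and 7 and 4 in ZnCl2, and the open share of its window ranged from 5.38% to 15.7%. In open length the TPA and control libraries overlapped.

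**Figure D3:**
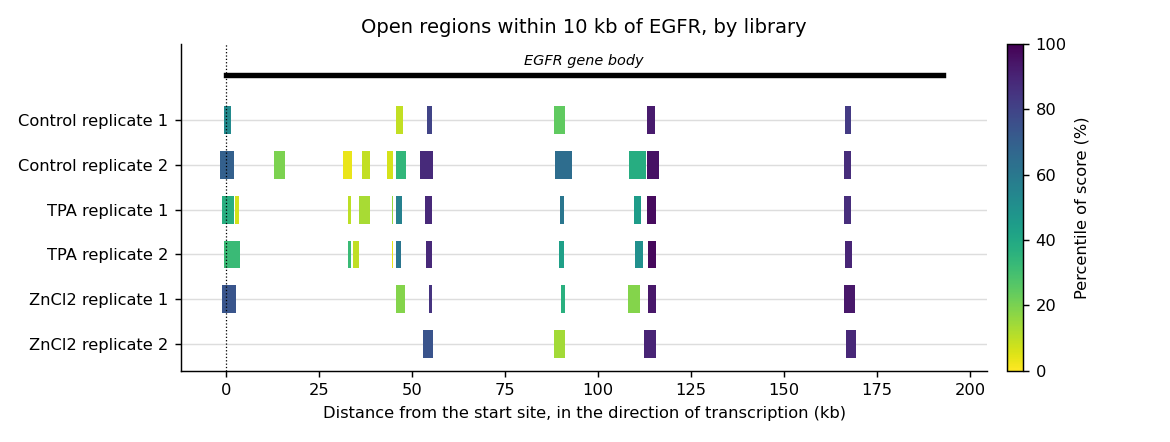
Open regions at EGFR in each library against distance (kb) from the start site, colored by the percentile of their score (%), with the gene body in black. The regions at 53.9, 90.6, 112 and 168 kb recur in all 6 rows, and the row of ZnCl2 replicate 2 has no bar at 0.

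Of the partner receptors, ERBB2 (chr17:39687914-39730426, plus strand) was open over exon 1 and its start site in all 6 libraries. The scores were 43 and 72 in control, 48 and 34 in TPA, and 61 and 40 in ZnCl2, and the percentiles were 45.1 and 68.2, 45.1 and 12.6, and 60.8 and 38.5. Control replicate 1 and TPA replicate 1 stood level to 1 decimal, so that the groups met without overlapping (exact two-sided permutation p = 0.333), and TPA replicate 2 was the lowest of the 6. By score the groups overlapped, with TPA replicate 1 at 48 above control replicate 1 at 43. Of regions over protein-coding start sites, 22.6% had lower percentiles with TPA without overlap. The log2 difference between TPA and control was -0.42 ± 0.17 (limma over 6 libraries, adjusted p = 0.152), and that between ZnCl2 and control was 0.02 ± 0.17 (adjusted p = 0.965). The calls over this start were between 1190 and 2800 bp wide.

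The window of ERBB2 also held regions over the starts of its neighbors PGAP3, MIEN1 and GRB7. The region over the MIEN1 start, 30.2 kb from that of ERBB2 (chr17:39729301-39731310), reaches the 3′ end of the ERBB2 gene. Its normalised log2 scores were 5.82 and 5.67 in control, 5.65 and 5.64 in TPA, and 6.07 and 6.13 in ZnCl2. Both ZnCl2 libraries stood above the other 4. TPA was lower than ZnCl2 by a log2 difference of -0.45 ± 0.15 (limma, adjusted p = 0.0381), a call that was lost when any 1 of the TPA or ZnCl2 libraries was left out (adjusted p from 0.0955 to 0.150). Of all tested regions over a protein-coding start, 17.4% were called lower with TPA than with ZnCl2. Against control, the difference at the MIEN1 start was 0.36 ± 0.15 with ZnCl2 (limma, adjusted p = 0.271) and -0.10 ± 0.15 with TPA (adjusted p = 0.751).

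ERBB3 (chr12:56076799-56103505, plus strand) had no call over its start site in control replicate 1, and percentiles of 62.1 in control replicate 2, 55.2 and 53.2 in TPA, and 72.4 and 25.3 in ZnCl2. The ZnCl2 libraries held both the highest and the lowest of these values. The 5′ end of the gene record, upstream of the start site used here, was open in 0 libraries. A region at the 3′ end (chr12:56103181-56106950), which overlaps exon 28 of ERBB3 and covers the start of PA2G4, a gene for a protein that binds ERBB3, was open in every library. Its scores were 95 and 171 in control, 90 and 91 in TPA, and 163 and 101 in ZnCl2, and the normalised log2 scores were 6.99 and 7.03, 6.46 and 6.36, and 7.01 and 7.02. Both TPA libraries lay below the other 4. The region fell by 0.60 ± 0.15 on the log2 scale with TPA against control (limma, adjusted p = 0.0245) and by 0.61 ± 0.15 against ZnCl2 (adjusted p = 0.00843), while ZnCl2 differed from control by 0.01 ± 0.15 (adjusted p = 0.982). Of all 15852 regions tested, 4.50% were called lower with TPA against control, and of those over a protein-coding start 7.53%. With TPA against ZnCl2, 17.4% of those over a protein-coding start were called lower. Without either control library or either TPA library, the adjusted p against control was 0.106 to 0.141, and in the 4-library fit it was 0.0515. The call against ZnCl2 was lost without TPA replicate 2 (adjusted p = 0.0626) or ZnCl2 replicate 2 (adjusted p = 0.0528).

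Among the ligands, HBEGF, heparin-binding EGF-like growth factor (chr5:140332843-140346603, minus strand), had the highest start-site percentiles of the 10 genes. They were 87.0 and 92.4 in control, 93.8 and 89.6 in TPA, and 94.4 and 85.1 in ZnCl2. The 3 groups overlapped. The log2 difference was 0.02 ± 0.15 with TPA (limma, adjusted p = 0.957) and 0.13 ± 0.15 with ZnCl2 (adjusted p = 0.755). The calls over this start were 1940 to 6390 bp wide, the widest in ZnCl2 replicate 2.

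TGFA, transforming growth factor alpha (chr2:70447284-70554193, minus strand), was open over its start site in all 6 libraries, at percentiles of 66.1 and 81.1 in control, 59.4 and 72.9 in TPA, and 85.4 and 60.5 in ZnCl2. The call of TPA replicate 2 was 31100 bp wide, against 2390 to 4130 bp in the other 5 libraries. The region tested over the start was a merged span of 31540 bp (chr2:70539691-70571230), joined by that wide call. It also takes in a separate call inside the gene in both control libraries, TPA replicate 1 and ZnCl2 replicate 1. In every library the score used was that of the call over the start. The start-site region differed by -0.23 ± 0.15 with TPA (limma, adjusted p = 0.387) and by 0.16 ± 0.15 with ZnCl2 (adjusted p = 0.669). In intron 1, at 28.7 kb from the start (chr2:70523261-70526900), a second region was open in all 6 libraries. Its scores were 51 and 76 in control, 92 and 99 in TPA, and 83 and 40 in ZnCl2. The normalised log2 scores were 6.04 and 5.81 in control, 6.50 and 6.50 in TPA, and 6.12 and 5.88 in ZnCl2, and both TPA libraries lay above the other 4.

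The intronic region of TGFA rose by 0.57 ± 0.16 on the log2 scale with TPA against control (limma, adjusted p = 0.0387) and stood 0.50 ± 0.16 above ZnCl2 (adjusted p = 0.0301). ZnCl2 differed from control by 0.07 ± 0.16 (adjusted p = 0.878). Of all regions tested, 2.03% were called higher with TPA, and of those not over a protein-coding start 3.49%. The call against control was lost without either control library or either TPA library (adjusted p from 0.102 to 0.203) and in the 4-library fit (adjusted p = 0.0720). The call against ZnCl2 was lost without TPA replicate 1 (adjusted p = 0.107), TPA replicate 2 (adjusted p = 0.116) or ZnCl2 replicate 2 (adjusted p = 0.209). The 300 bases at the center of the region (plus strand, hg38), shown because it is the only region of the 10 genes called higher with TPA, hold 2 matches to the metal response element core, in capitals. This is the core of the element bound by the zinc-sensing factor MTF1, and 27.8% of the centers of regions open in all 6 libraries held at least 1 match. The share with 2 or more was not computed. At EGFR, the center of the start-site region, which was not called, also held 2. Those of the EGFR regions at 53.9, 90.6, 112 and 168 kb held 0. Binding of MTF1 was not tested.
TGFA, chr2:70524931-70525230: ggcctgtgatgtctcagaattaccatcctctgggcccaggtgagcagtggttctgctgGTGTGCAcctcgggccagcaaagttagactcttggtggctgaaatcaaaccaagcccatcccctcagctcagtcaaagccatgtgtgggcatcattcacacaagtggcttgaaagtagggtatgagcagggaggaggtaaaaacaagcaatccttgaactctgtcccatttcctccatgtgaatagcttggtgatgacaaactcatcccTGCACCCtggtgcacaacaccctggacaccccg

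**Figure D4:**
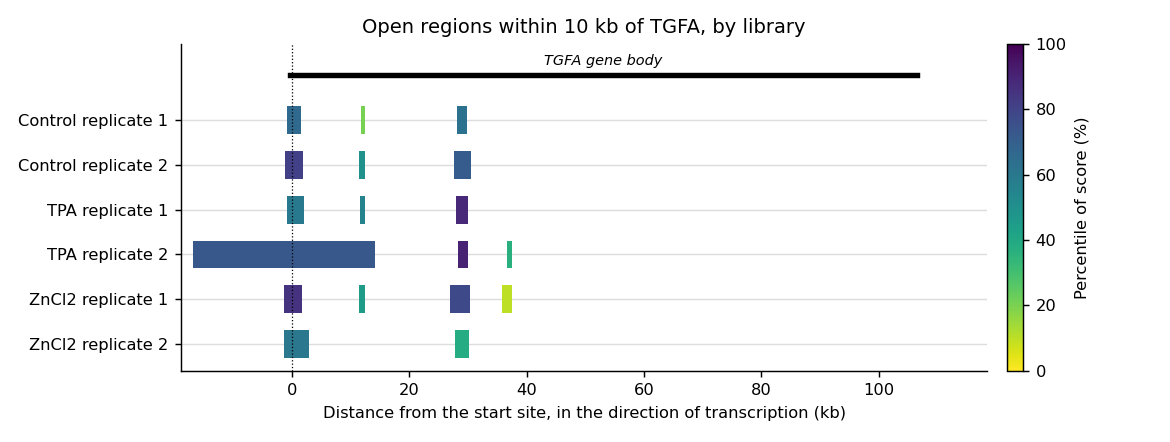
Open regions at TGFA in each library against distance (kb) from the start site in the direction of transcription, colored by the percentile of their score (%), with the gene body in black. The intronic region at 28.7 kb is darkest in the 2 TPA rows (percentiles 88.9 and 90.4), and the call over the start of TPA replicate 2 is 31100 bp wide.

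The ligand genes EPGN, EREG, AREG and BTC lie in a cluster on chromosome 4, and no call over their starts had a percentile above 52.5. AREG, amphiregulin (chr4:74445136-74455005, plus strand), had no call over its start in control replicate 1 and ZnCl2 replicate 2. Its percentiles were 17.1 in control replicate 2, 6.79 and 6.68 in TPA and 52.5 in ZnCl2 replicate 1, which was the highest by a wide margin. EPGN, epigen (chr4:74308470-74316789, plus strand), was open at the start in control replicate 2, at percentile 28.6, and in TPA, at 13.1 and 30.1, and in neither ZnCl2 library.

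BTC, betacellulin (chr4:74744759-74794523, minus strand), had start-site scores of 36 and 49 in control, 30 and 30 in TPA and 45 in ZnCl2 replicate 1, with no call in ZnCl2 replicate 2. Both TPA scores were the lowest that the lists hold, a percentile of 0, against 24.2 and 42.8 in control, and the exact two-sided permutation p was 0.333. As given for EGFR, 22.6% of start regions were lower with TPA in this way. The 4-library fit gave -0.53 ± 0.16 between TPA and control, with an adjusted p of 0.0730 by limma, in a fit that called 4.64% of all regions. EREG, epiregulin (chr4:74365145-74388749, plus strand), had no call over its start in any library. It had a region in intron 1 at 10.5 kb, chosen after its values were seen, with a score of 39 in control replicate 2 and 61 and 50 in TPA, and no call in the other 3 libraries.

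EGF itself (chr4:109912883-110013766, plus strand), the factor supplied in the growth medium, had no call over its start in any library. A region over exon 18, 76.4 kb from the start, was open in 4 libraries, with scores of 50 in control replicate 2, 47 and 46 in TPA and 60 in ZnCl2 replicate 1. No more than 1.52% of the EGF window was open in any library. In AREG, EREG, EPGN and EGF the window held 0 regions in control replicate 1 and in ZnCl2 replicate 2, the libraries with the shortest lists. The part of list length in these absences was not tested.

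Over the 34 regions in the windows, 0 were gained and 0 lost with TPA, and likewise 0 and 0 with ZnCl2, where gained means called in both libraries of the treatment and absent from both controls, and lost means the opposite. The background was 2.04% gained and 0.703% lost with TPA, and 0.172% gained and 1.73% lost with ZnCl2. Of the 34 regions, 11 were open in all 6 libraries and could be tested together. With TPA against control, 2 of the 11 were called by limma, the intronic region of TGFA and the region at the 3′ end of ERBB3, beside a background of 6.54%. With ZnCl2 against control, 0 were called by limma, beside a background of 0.435%. In that comparison 2 of the 11 had an unadjusted p under 0.05, beside 15.0% of all regions tested. Between TPA and ZnCl2, 3 of the 11 were called, beside a background of 23.4%.

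With TPA, 5 of the 6 tested regions over a protein-coding start site, neighbors included, had a log2 difference below 0, and HBEGF, at 0.02, was the exception, with a sign that turned to -0.011 under median centring. The 5 tested regions away from starts, 4 in EGFR and 1 in TGFA, had differences above 0. Over all regions tested, 34.8% of those over coding starts and 70.2% of the others were above 0. Away from starts, 1 of the 5 regions turned below 0 in the 4-library fit, with no filter, and without control replicate 1, control replicate 2 or TPA replicate 1, and in the upper 50% of each list 2 of the 4 start regions left were above 0. Of the 6 start regions, 2 were above 0 without control replicate 1. The medians of the tested regions in the windows were -0.17 over starts and 0.07 elsewhere. Those over starts include the starts of the neighbors MIEN1, GRB7 and PA2G4. Over all regions tested, the medians were -0.10 and 0.13, with the same signs. With ZnCl2, 6 of 6 start regions and 2 of 5 other regions were above 0, or 6 and 4 under median centring. The start count fell to 5 of 6 when either control library was dropped, and to 4 of 6 when ZnCl2 replicate 2 was. Dropping 1 library at a time left 1 to 3 of the 5 other regions above 0. In the whole set of tested regions, the shares above 0 were 55.7% over coding starts and 47.6% elsewhere. The medians of the tested regions in the windows with ZnCl2 were 0.11 over starts, neighbors included, and -0.0029 elsewhere, beside 0.03 and -0.02 over all regions.

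**Figure D5:**
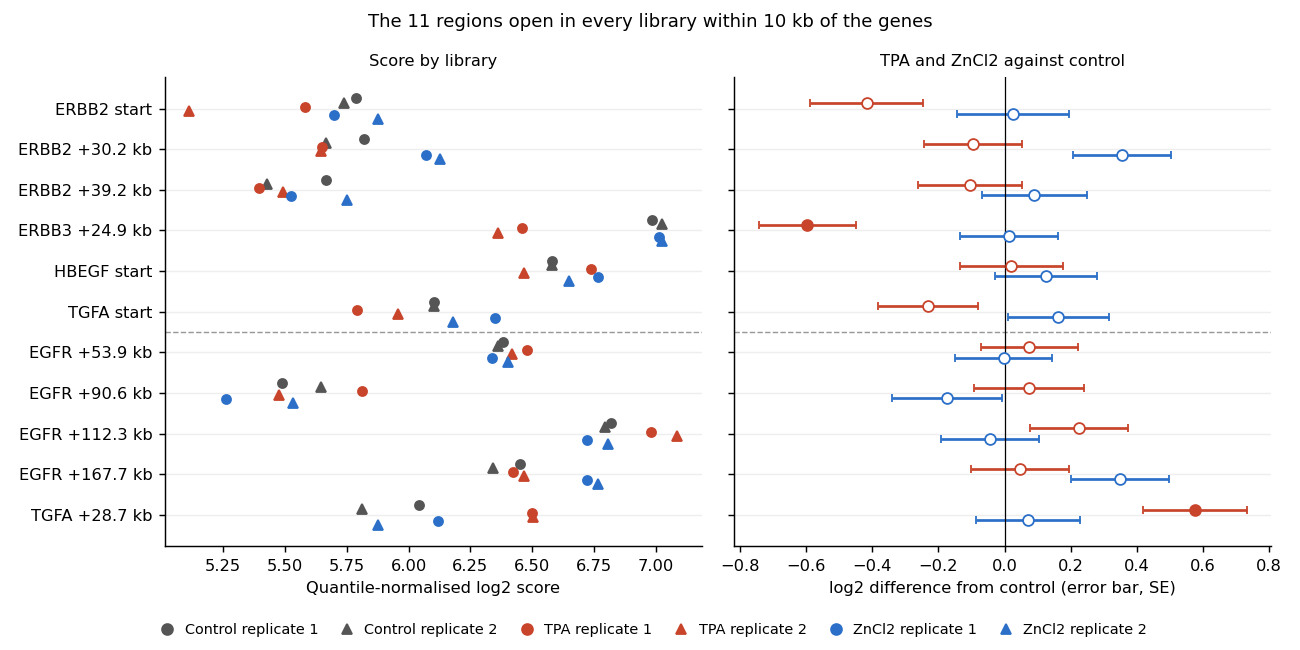
Quantile-normalised log2 score in each library (left; circles and triangles are replicates 1 and 2) and log2 difference from control with its standard error (right; red TPA, blue ZnCl2, filled where called) for the 11 regions open in every library, with those over a protein-coding start above the dashed line. Filled points are the ERBB3 region at 24.9 kb (-0.60) and the TGFA region at 28.7 kb (0.57), both with TPA.

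The other genes of EGF receptor signalling were described by a list of 32, from receptors and proteases to RAS, MAPK and PI3 kinase components and feedback inhibitors. Their start sites were open in 6 libraries for 22 genes, in 5 for 5, in 4 for 2, in 1 for MAPK3, and in 0 for ERBB4 and NRG4. Over all tested regions 4.50% were called lower with TPA against control and 2.03% higher, and over those at coding starts 7.53% and 0.470%. Of the 22 signalling genes that could be tested, 2 were lower and 0 higher by limma. Among them was GAB1, a docking protein of receptor signalling, which fell by 0.94 ± 0.15 (limma, adjusted p = 0.00274), with an adjusted p of 0.0601 without control replicate 1. The median over the 22 was -0.18, beside -0.10 over all tested regions at coding starts. With ZnCl2 against control 0 of 22 were called. Of all tested regions at coding starts, 0.0783% were called higher and 0.0783% lower with ZnCl2. Between TPA and ZnCl2, 5 were lower with TPA by limma, among them GAB1, SOCS3, PIK3R1 and the protease ADAM17. SPRY4, a feedback inhibitor, was the 1 that was higher (0.54 ± 0.17, adjusted p = 0.0266). Of all tested regions over coding starts, 17.4% were called lower and 2.84% higher in this comparison. The calls of SOCS3, PIK3R1, ADAM17 and SPRY4 were each lost without 1 of at least 3 single libraries. With an absent call set to 0, the start-site percentiles most like those of EGFR over the 6 libraries were of MAP2K2, CBL and ERRFI1, at Euclidean distances of 36.4, 41.8 and 43.6.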

How the data were processed

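ATAC-seq libraries of MCF10A cells, 2 per group, were each sequenced in more than 1 run. The authors checked reads with FastQC 0.11.8, trimmed them with BBDuk, mapped them to hg38 with HISAT2 2.1.0, indexed the alignments with SAMtools 1.8 and called open regions per library with HMMRATAC, whose version and kind of score are not given in the sources used here. The deposited values are a whole-number score per region, set by the authors' caller. They are not read counts, depth is unknown, and the blacklist and merging of the authors' later steps were not applied here.

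Calls on the assembled chromosomes were merged across libraries (overlap of at least 1 bp; checked against bedtools 2.31.1), and the highest score per library was kept. The log2 scores of 15852 regions open in all 6 libraries were quantile-normalised and fitted in 1 model with limma 3.58.1 (R 4.3.3), with Benjamini-Hochberg adjusted p under 0.05 called. The step was tested on simulated data. A second fit used the 4 libraries of each comparison and was added after seeing that ZnCl2 replicate 2 lacked calls. Start sites were those of MANE Select transcripts in GENCODE release 44. Promoter sequences came from RefSeq, where 8 of the 10 genes matched at the start used, and 14642 of 20007 coding genes did. Named were the start-site regions, every region called, gained or lost, and the genes of the signalling list that were called, of which 1 is not reported here. The genes and lists were chosen with earlier results of these data known. Groups and replicate numbers came from the labels. Calculations used Python 3.11.15, NumPy 2.4.6, pandas 2.3.3 and SciPy 1.17.1.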

Additional observations from a re-analysis of the deposited data

Results flagged for a closer look

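At 3 regions the effects of TPA and ZnCl2 against the same control libraries differed by the test of the difference itself (limma over 6 libraries). The log2 difference of TPA minus ZnCl2 was 0.50 in intron 1 of TGFA, -0.61 at the 3′ end of ERBB3, over the start of PA2G4, and -0.45 over the MIEN1 start in the window of ERBB2. In the whole set of regions 23.4% passed this test. Groups of 2 libraries are too small for a test of single libraries that stand apart.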

How the results depend on the processing

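The counts over all regions moved with the processing, and the cause was not tested. Called regions numbered 433 (TPA against control) and 0 (ZnCl2 against control) on normal scores of ranks, 18 (ZnCl2 against control) and 2368 (TPA against ZnCl2) with equal numbers of regions, and 444, 13 and 1502 with the upper 50% of each list, in the order TPA against control, ZnCl2 against control and TPA against ZnCl2. With no filter they were 9, 3 and 340, and in the 4-library fit of ZnCl2 against control 44. Leaving out 1 library at a time gave 3 to 1042, 0 to 45 and 1654 to 3529 in the same order, with 3 without control replicate 1.

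Of the regions of the genes, those called with TPA against control became 0 of 11 on normal scores, 0 of 34 with no filter, 0 of 15 in the 4-library fit and 1 of 11 under median centring, with 0 to 2 when 1 library was left out. In the upper 50% 1 of 7 was called, and the TGFA intronic region was not among the 7. Between TPA and ZnCl2 they became 5 of 11 under median centring, 1 of 7 in the upper 50% and 0 of 34 with no filter, with 0 to 3 when 1 library was left out. The calls over the ERBB3 3′ end and in TGFA kept their direction in every alternative that tested them.

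Regions gained with TPA became 1 with equal numbers and 1 in the upper 50%, and lost ones 3, 1 and, with an overlap of at least 50%, 1. Leaving out 1 library gave 0 to 9 gained and 0 to 1 lost with TPA, and 0 to 4 gained and 0 to 7 lost with ZnCl2, where 1 library then stands for its group. The 9 were regions open in both TPA libraries and control replicate 2, and not in control replicate 1. The list of control replicate 1 was among the 2 shortest. No shares over all regions were computed for these alternatives. The mean number of open starts, 8 with TPA against 6.5 in control, turned to a difference of -2.5 with equal numbers and -1.0 in the upper 50%. No share over all start sites was computed for these 2 settings. The log2 difference at the ERBB2 start between ZnCl2 and control ranged from -0.064 to 0.114 when 1 library was left out. At the HBEGF start, TPA against control turned to -0.011 under median centring and ranged from -0.118 to 0.162 when 1 library was left out, and TPA against ZnCl2 ranged from -0.246 to 0.032.

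Same-numbered libraries correlated in their deviations at 0.137 (control and TPA), 0.028 (control and ZnCl2) and 0.042 (TPA and ZnCl2), and the labels tie the numbers to no shared batch, so the libraries were not treated as paired. Whether the numbers carry a batch was not settled. With the replicate block, 1292, 98 and 4086 regions were called, with 2, 0 and 3 among the 11. Counted within same-numbered pairs and averaged in that replicate block, 7.5 regions were present in TPA and not in its control, 0.5 the other way round, and with ZnCl2 the numbers were 4.0 and 7.0. The lists of control, TPA and ZnCl2 held 25031, 35902 and 38069 regions in replicate 1, and 44641, 41376 and 18887 in replicate 2. No share over all regions was computed for these paired counts, and the part of list length in them was not tested. With 2 libraries a group and no read counts, precision is limited by the spread between libraries.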
